A study of Arabidopsis thaliana with 12 samples.

Results

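A set of 10 genes of lignin monomer synthesis were followed across 4 genotypes of Arabidopsis thaliana, out of 28775 loci counted in each library. They were named by symbol and locus, and they comprised the phenylalanine ammonia-lyase genes PAL1 (AT2G37040), PAL2 (AT3G53260), PAL3 (AT5G04230) and PAL4 (AT3G10340), the cinnamate 4-hydroxylase gene C4H (AT2G30490), the 4-coumarate:CoA ligase genes 4CL1 (AT1G51680) and 4CL2 (AT3G21240), HCT (AT5G48930), CCOAOMT1 (AT4G34050) and CCR1 (AT1G15950). The genes were selected on their measured levels over the 4 genotypes, with their differences between these libraries known, so their levels and differences are given as a description. Counts of those past the threshold of the fit across all genes are set beside the share of all genes and support nothing further. All 10 genes passed the filter on low counts, and their counts ran from 30 (4CL2 in WT replicate 3) to 4970.

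The phenylpropanoid pathway turns phenylalanine into the alcohols that are polymerised into lignin, the phenolic polymer that stiffens xylem vessels and fibres and seals the Casparian strip of the root. PAL removes ammonia from phenylalanine to give cinnamate, C4H hydroxylates the ring, and 4CL couples the product to coenzyme A. The resulting coumaroyl-CoA is shared with flavonoid synthesis. HCT moves the coumaroyl group to and from shikimate, CCoAOMT methylates caffeoyl-CoA, and CCR reduces the CoA ester, which commits it to monolignols.

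Messenger RNA was sequenced from whole plants of the Ws strain at 14 days on MS medium, with 3 libraries for each genotype. The groups were wild type (WT), plants with a GRF1-GFP fusion behind the 35S promoter (GRF1_OE), plants with a GRF3-GFP fusion driven likewise (GRF3_OE), and plants labelled as the mutant grf1/grf2/grf3. GRF1, GRF2 and GRF3 are growth-regulating factors, plant transcription factors of leaf growth. The 35S promoter is a viral promoter that is active in most plant cells. The number of transgenic lines and of plants in a library is not stated in the sources used here. The labels describe complete blocks with 3 replications, but do not say that the replicate numbers in the titles are those blocks. They do not otherwise tie the replicates to separate cultures or plantings. P-values therefore measure the spread between these libraries, which may be technical.

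Gene counts per library ran from 2820223 in WT replicate 3 to 14277574 in replicate 3 of the libraries labelled grf1/grf2/grf3. WT replicate 3 was the shallowest library and had the lowest correlations with its own replicates, at 0.962 and 0.965 across genes, against 0.978 to 0.988 for pairs in the other genotypes. GRF1 stood at 149.9 ± 35.0 CPM (counts per 1000000 after TMM scaling; SD, n = 3) in GRF1_OE and at 17.1 ± 1.57 in WT. GRF3 stood at 209.9 ± 13.7 CPM in GRF3_OE and at 22.5 ± 6.78 in WT. In the libraries labelled grf1/grf2/grf3, GRF1 was at 8.58 ± 1.25 and GRF2 at 0.929 ± 0.253 CPM, against 11.1 ± 2.35 for GRF2 in WT. GRF3 was at 22.7 ± 2.62 CPM there, within the WT range, so its RNA level does not show the mutation in the label. RNA levels cannot say whether the gene is functional. GRF2 was also low in GRF1_OE (0.742 ± 0.493 CPM) and in GRF3_OE (0.869 ± 0.275 CPM), so WT differed from all other groups in GRF2. GRF1 was at 8.85 ± 0.153 CPM in GRF3_OE, below WT and near its level in the libraries labelled grf1/grf2/grf3. The genetic background of the transgenic plants is not stated in the sources used here beyond the strain, so each comparison of an overexpressor with WT also holds these differences. Both leaf mesophyll markers (34169 to 42112 CPM summed) and root hair markers (2.44 to 32.8 CPM summed) were detected in every library, as the label of whole plants has it.

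The PAL genes lie apart in the genome. In TAIR10.1 coordinates PAL1 is on the minus strand at chr2:15557367-15560755, PAL2 on the minus strand at chr3:19744018-19747114, PAL3 on the plus strand at chr5:1160569-1163957 and PAL4 on the plus strand at chr3:3203988-3208135. PAL1 and PAL2 shared 83.9% of aligned coding bases and 90.6% of aligned residues, and the other pairs of PAL genes shared 69.7 to 78.9% of coding bases. The longest stretch of identical coding sequence between PAL1 and PAL2 was 80 bases, and reads that fall wholly in such a stretch match both genes. The predicted proteins run from 698 residues (PAL3) to 725 residues (PAL1), and each holds the ASG tripeptide that forms the catalytic MIO group of ammonia-lyases. The 120 bases before the starts of PAL1 and PAL2 are shown because these genes were the most alike of the family in sequence and had nearly the same level in WT. Capitals mark runs of at least 9 bases that occur in both windows, in the same order. Sequences are the RefSeq TAIR10.1 genome, written 5′ to 3′ on the gene's strand, and both end at the base before the annotated start.
PAL1, chr2:15560756-15560875 (minus strand): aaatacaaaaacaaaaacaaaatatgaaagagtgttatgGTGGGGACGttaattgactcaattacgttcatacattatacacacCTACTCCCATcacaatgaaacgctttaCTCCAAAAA
PAL2, chr3:19747115-19747234 (minus strand): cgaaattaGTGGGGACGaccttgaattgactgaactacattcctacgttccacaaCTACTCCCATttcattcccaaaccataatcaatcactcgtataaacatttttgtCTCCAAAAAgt
The 250 bases before the start of PAL4 are shown because PAL4 had the widest range of all members across the genotypes. Capitals mark a G-box, CACGTG, at 117 bases before the start.
PAL4, chr3:3203738-3203987 (plus strand): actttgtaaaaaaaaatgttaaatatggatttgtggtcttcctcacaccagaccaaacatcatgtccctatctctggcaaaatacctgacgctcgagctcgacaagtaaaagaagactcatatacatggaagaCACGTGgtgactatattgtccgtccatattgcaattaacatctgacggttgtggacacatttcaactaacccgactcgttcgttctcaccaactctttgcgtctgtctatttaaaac

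Promoters of lignin genes are known for AC elements, short sites bound by MYB factors. The 250 bases before each start were searched on both strands for the AC elements AC-I (ACCTACC), AC-II (ACCAACC) and AC-III (ACCTAAC), for the G-box CACGTG and for TGTCAGG, the site known for the related factor GRF7. An AC element stood before 4 of the 10 genes and before 6.12% of all 27443 promoters of that length. These genes were 4CL2 (at 140 and 31 bases before the start), HCT (90 bases), CCOAOMT1 (213 bases) and CCR1 (14 bases), and none of the PAL genes was among them. The G-box stood before PAL4 alone of the 10, and before 6.49% of all promoters. TGTCAGG stood before 0 of the 10 genes and before 0.754% of all promoters. A match describes letters, not binding, and the absence of one says only that these letters are not in the window. The stretches around the AC elements are shown with the element in capitals. For CCR1 and 4CL2 only 30 bases are given, since other genes overlap their upstream windows.
HCT, chr5:19838296-19838355 (minus strand): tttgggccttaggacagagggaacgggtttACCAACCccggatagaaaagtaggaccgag
CCOAOMT1, chr4:16310169-16310228 (plus strand): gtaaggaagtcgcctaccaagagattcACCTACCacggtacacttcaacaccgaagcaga
CCR1, chr1:5478573-5478602 (plus strand): tgtttcttcttcttccACCAACCcctcttt
4CL2, chr3:7457525-7457554 (minus strand): agagtagctcACCAACCcctacatgaactt
4CL2, chr3:7457420-7457449 (minus strand): aataataacatttcACCAACCacaaattct

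In WT the 10 genes spanned a wide range of levels per kilobase of exon (RPKM, which corrects for the length of the longest annotated transcript). CCOAOMT1 stood highest at 143.5 ± 12.5 RPKM (SD, n = 3), and C4H followed at 73.9 ± 5.13. PAL1 (60.1 ± 7.98), PAL2 (58.0 ± 7.21) and 4CL1 (52.2 ± 6.20) did not differ beyond their spread. CCR1 (45.4 ± 1.98) and HCT (42.9 ± 3.49) were next and overlapped. PAL4 (8.33 ± 1.52), PAL3 (6.40 ± 0.906) and 4CL2 (5.41 ± 0.801) were the low group. PAL1 and PAL2 thus made up most of the PAL transcript, at 45.2 ± 0.989 and 43.7 ± 0.973% of the summed PAL RPKM in WT.

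The PAL genes, which open the pathway, were lower in both overexpressors than in WT. PAL1, the most abundant of them per kilobase in WT, was at 118.0, 110.0 and 114.0 CPM in GRF1_OE, at 144.7, 118.8 and 155.5 in GRF3_OE, at 210.3, 208.6 and 193.2 in the libraries labelled grf1/grf2/grf3, and at 168.0, 157.8 and 202.4 in WT. All GRF1_OE and GRF3_OE values lay below the lowest WT value, and the values of the libraries labelled grf1/grf2/grf3 overlapped WT. On the log2 scale PAL1 differed from WT by −0.62 (SE 0.11) in GRF1_OE and by −0.32 (SE 0.11) in GRF3_OE. In the libraries labelled grf1/grf2/grf3 it differed by 0.22 (SE 0.11). Without GRF3_OE replicate 2 the GRF3_OE value was −0.22.

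PAL2, the close copy of PAL1, was at 106.8, 99.2 and 111.6 CPM in GRF1_OE, at 116.1, 103.0 and 138.8 in GRF3_OE, and at 153.6, 157.5 and 191.5 in WT. Neither overexpressor overlapped WT. The libraries labelled grf1/grf2/grf3 were at 195.1, 158.9 and 136.4 CPM, the widest spread of the 4 groups, and held WT within their range. Its log2 difference from WT was −0.65 (SE 0.13) in GRF1_OE, −0.48 (SE 0.13) in GRF3_OE and −0.03 (SE 0.13) in the libraries labelled grf1/grf2/grf3.

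PAL4 moved over the widest range of the 10 genes. It was at 10.4, 11.9 and 12.8 CPM in GRF1_OE, at 10.4, 12.3 and 12.7 in GRF3_OE, at 50.8, 57.6 and 45.5 in the libraries labelled grf1/grf2/grf3, and at 22.7, 18.5 and 26.8 in WT. The overexpressors shared 1 level below WT, and the libraries labelled grf1/grf2/grf3 lay above every other library. The log2 difference from WT was −0.91 (SE 0.15) in GRF1_OE, −0.89 (SE 0.15) in GRF3_OE and 1.20 (SE 0.14) in the libraries labelled grf1/grf2/grf3, a 2.30-fold higher level. With any 1 library left out, these differences kept their sign. The range was 1.07 to 1.30 for the libraries labelled grf1/grf2/grf3.

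PAL3, the least abundant PAL gene per kilobase in WT, was at 10.2, 9.5 and 11.96 CPM in GRF1_OE, at 9.1, 12.5 and 13.5 in GRF3_OE, at 10.6, 13.1 and 6.9 in the libraries labelled grf1/grf2/grf3, and at 14.0, 17.5 and 18.4 in WT. All 3 other genotypes lay below WT, so PAL3 and PAL4 stood on opposite sides of WT in the libraries labelled grf1/grf2/grf3. For PAL3 the log2 difference from WT was −0.63 (SE 0.20) in GRF1_OE, −0.46 (SE 0.20) in GRF3_OE and −0.80 (SE 0.21) in the libraries labelled grf1/grf2/grf3. Without replicate 3 of the libraries labelled grf1/grf2/grf3, the last value was −0.48.

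**Figure D1:**
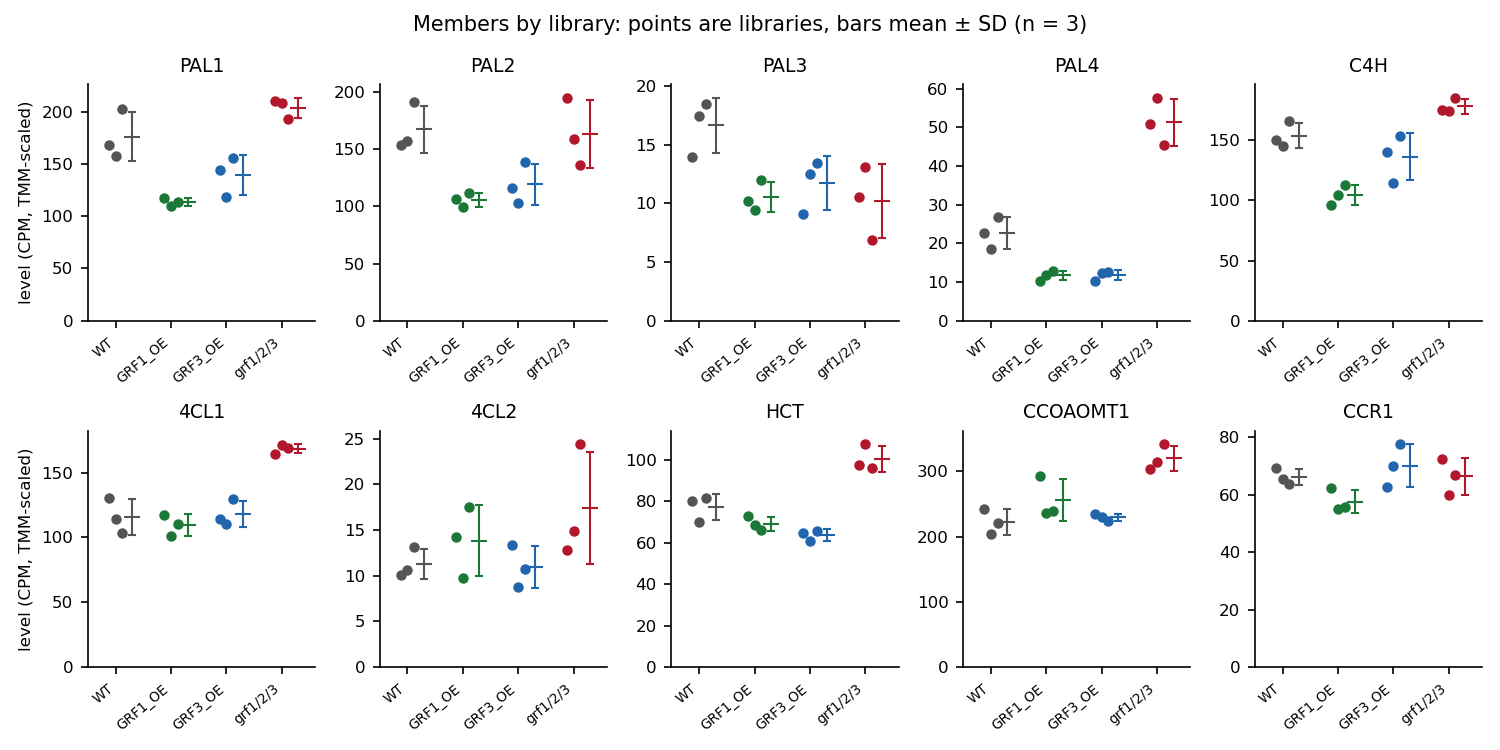
CPM of the 10 genes in each of the 12 libraries, 1 panel for each gene, with points for single libraries and bars for the mean ± SD of 3 libraries. PAL1, PAL2, PAL3 and PAL4 lay below WT in every library of both overexpressors, and PAL4 stood at 45.5 to 57.6 CPM in the libraries labelled grf1/grf2/grf3 against 18.5 to 26.8 in WT.

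Within the PAL family, the mix changed with genotype. Summed PAL1 to PAL4 stood at 132.8 ± 16.9 RPKM in WT, 83.9 ± 3.58 in GRF1_OE, 97.8 ± 12.7 in GRF3_OE and 149.0 ± 15.1 in the libraries labelled grf1/grf2/grf3. The last group overlapped WT and both overexpressors lay below it. PAL4 made up 6.72, 5.57 and 6.46% of that sum in WT, and 11.5, 13.9 and 12.6% in the libraries labelled grf1/grf2/grf3. In GRF1_OE the share was 4.49, 5.48 and 5.40%, and in GRF3_OE 3.93, 5.26 and 4.19%. Both overexpressors lay just under the lowest WT share. A share within a library does not depend on the scaling between libraries, and the share of PAL4 averaged 6.25 ± 0.602% in WT and 12.7 ± 1.19% in the libraries labelled grf1/grf2/grf3.

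C4H, the next enzyme and the first cytochrome P450 of the pathway, lies on the minus strand at chr2:12993625-12996012. It was at 96.6, 104.3 and 112.7 CPM in GRF1_OE, at 140.6, 114.8 and 153.7 in GRF3_OE, at 174.9, 174.7 and 185.3 in the libraries labelled grf1/grf2/grf3, and at 150.3, 145.6 and 166.0 in WT. GRF1_OE lay below all other libraries, GRF3_OE overlapped WT, and the libraries labelled grf1/grf2/grf3 lay above WT. C4H differed from WT on the log2 scale by −0.55 (SE 0.10) in GRF1_OE, −0.17 (SE 0.10) in GRF3_OE and 0.22 (SE 0.10) in the libraries labelled grf1/grf2/grf3. The log2 difference of GRF1_OE minus GRF3_OE was −0.38 (SE 0.10), the largest difference between the overexpressors among the 10 genes.

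Both ligase genes differed in level and in pattern. 4CL1 lies on the minus strand at chr1:19158746-19161737 and stood at 117.5, 101.0 and 110.0 CPM in GRF1_OE, at 114.6, 110.4 and 129.5 in GRF3_OE, and at 130.5, 114.0 and 103.2 in WT. These 3 groups overlapped. The libraries labelled grf1/grf2/grf3 were at 164.7, 171.4 and 169.2 CPM, above all others, with a log2 difference from WT of 0.53 (SE 0.10). 4CL2, at chr3:7454269-7457404 on the minus strand, shared 81.6% of coding bases with 4CL1. It was at 14.2, 9.8 and 17.5 CPM in GRF1_OE, at 13.3, 8.8 and 10.7 in GRF3_OE, at 12.8, 14.9 and 24.4 in the libraries labelled grf1/grf2/grf3, and at 10.03, 10.6 and 13.2 in WT. All groups overlapped WT. The log2 difference of the libraries labelled grf1/grf2/grf3 was 0.75 (SE 0.27), and 0.34 without their replicate 3.

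HCT, at chr5:19836299-19838235 on the minus strand, was at 72.7, 68.4 and 65.9 CPM in GRF1_OE, at 64.8, 60.6 and 65.7 in GRF3_OE, at 97.5, 107.3 and 95.8 in the libraries labelled grf1/grf2/grf3, and at 79.9, 70.0 and 81.7 in WT. The libraries labelled grf1/grf2/grf3 lay above all others, GRF3_OE lay below WT, and GRF1_OE overlapped WT. The log2 difference from WT was 0.38 (SE 0.10) in the libraries labelled grf1/grf2/grf3, −0.27 (SE 0.10) in GRF3_OE and −0.16 (SE 0.10) in GRF1_OE.

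CCOAOMT1, at chr4:16310409-16312308 on the plus strand, was at 303.6, 314.1 and 341.2 CPM in the libraries labelled grf1/grf2/grf3 and at 242.7, 204.2 and 220.4 in WT, without overlap. It was at 292.5, 235.6 and 239.0 CPM in GRF1_OE and at 234.9, 230.2 and 223.9 in GRF3_OE, and both overlapped WT. The log2 difference from WT was 0.52 (SE 0.10) in the libraries labelled grf1/grf2/grf3, 0.20 (SE 0.10) in GRF1_OE and 0.05 (SE 0.10) in GRF3_OE. The GRF3_OE value changed sign without WT replicate 2 (−0.01).

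CCR1, which catalyses the first committed step to monolignols, lies on the plus strand at chr1:5478603-5482180. It has 1458 exonic bases and is overlapped by 2 antisense genes. The exonic bases shared, summed over these genes, were 1035, and a base under both counts for each. The sources used here do not give the strand setting of the counting, which leaves the counts of CCR1 uncertain. It was at 62.2, 54.9 and 55.7 CPM in GRF1_OE, at 62.5, 69.9 and 77.4 in GRF3_OE, at 72.4, 59.8 and 66.7 in the libraries labelled grf1/grf2/grf3, and at 69.3, 65.5 and 63.7 in WT. GRF1_OE lay just below WT, with a log2 difference of −0.21 (SE 0.10), and the other genotypes overlapped WT.

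Counted over the set, edgeR (quasi-likelihood F test, Benjamini-Hochberg adjusted p under 0.05) called 0 of the 10 genes higher and 5 lower than WT in GRF1_OE (PAL1, PAL2, PAL3, PAL4 and C4H), where it called 21.8% of the 17938 genes tested, 10% higher and 11.8% lower. In GRF3_OE it called 0 higher and 3 lower (PAL1, PAL2 and PAL4), against 12.4% of all genes, 6.07% higher and 6.34% lower. In the libraries labelled grf1/grf2/grf3 it called 4 higher (PAL4, 4CL1, HCT and CCOAOMT1) and 1 lower (PAL3), against 4.88% of all genes, 2.11% higher and 2.77% lower. Between GRF1_OE and GRF3_OE it called 0 (DESeq2 also 0, and 3 at an unadjusted p under 0.05), against 1.14% of all genes, 0.485% higher and 0.652% lower. Groups that did not overlap WT were counted too. In GRF1_OE 0 of the 10 genes lay above every WT library and 6 below, against 19 and 19.6% of all genes. For GRF3_OE the counts were 0 and 5, against 16.8 and 15.5%, and for those labelled grf1/grf2/grf3 5 and 1, against 10.4 and 10.5%. Between the overexpressors, 2 genes lay higher in every GRF1_OE library and 3 lower, against 8.51 and 9.62%. The median log2 difference of the 10 genes was −0.38, −0.22, 0.30 and −0.14 in these comparisons, and that of all genes tested lay between −0.01 and 0.01. Since the genes were chosen with these values known, the counts stand as a description. The 3 comparisons with WT share its libraries. Without GRF3_OE replicate 1 or 2, or without WT replicate 3, the GRF3_OE count was 1 (PAL4), and without WT replicate 2 the count for the libraries labelled grf1/grf2/grf3 was 3. Without GRF3_OE replicate 2, 1 gene (C4H) was called between the overexpressors. PAL3 in GRF1_OE was not called when replicate 1 or 2 of that group or replicate 2 or 3 of WT was left out (−0.62 to −0.55). In GRF3_OE this held for PAL1 with replicate 1 or 2 of that group or replicate 1 or 3 of WT left out (−0.35 to −0.22), and for PAL2 with the same GRF3_OE libraries or WT replicate 3 left out (−0.46 to −0.38). Of the calls in the libraries labelled grf1/grf2/grf3 it held for PAL3 without their replicate 3 or WT replicate 2 or 3 (−0.75 to −0.48), and for HCT without their replicate 2 or WT replicate 2 (0.34 and 0.31). 4CL2 was called there without their replicate 1 (0.95). With each library's trend over transcript length removed, PAL1 (−0.18) and PAL2 (−0.34) in GRF3_OE and PAL3 (−0.51) in GRF1_OE were not called, and CCR1 (−0.32) in GRF1_OE was called lower.

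**Figure D2:**
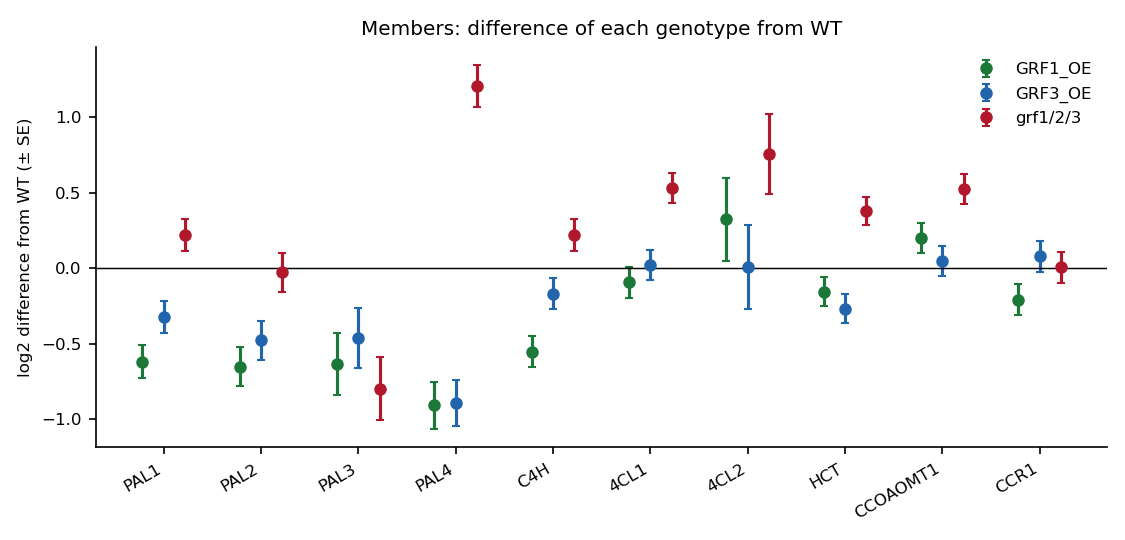
Log2 difference from WT of each of the 10 genes in GRF1_OE, GRF3_OE and the libraries labelled grf1/grf2/grf3, with bars of 1 standard error from the edgeR fit. The PAL genes and C4H sit at or below −0.17 in both overexpressors, and the largest positive value is that of PAL4 at 1.20 in the libraries labelled grf1/grf2/grf3.

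A ratio within a library was formed from 6 of the 10 genes. They were chosen after their values were seen, and PAL3, PAL4, 4CL2 and CCR1 are not in it, so the ratio describes these genes and not the steps of the pathway. Their exonic lengths ran from 1550 bases (CCOAOMT1) to 2931 (PAL1), and trends over transcript length were not removed from the ratio. The log2 ratio of summed PAL1, PAL2 and C4H RPKM to summed 4CL1, HCT and CCOAOMT1 RPKM was −0.51, −0.32 and −0.12 in WT and −1.19, −0.95 and −0.87 in GRF1_OE, without overlap. It was −0.61, −0.82 and −0.45 in GRF3_OE, which overlapped WT, and −0.54, −0.69 and −0.79 in the libraries labelled grf1/grf2/grf3, which did not.

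**Figure D3:**
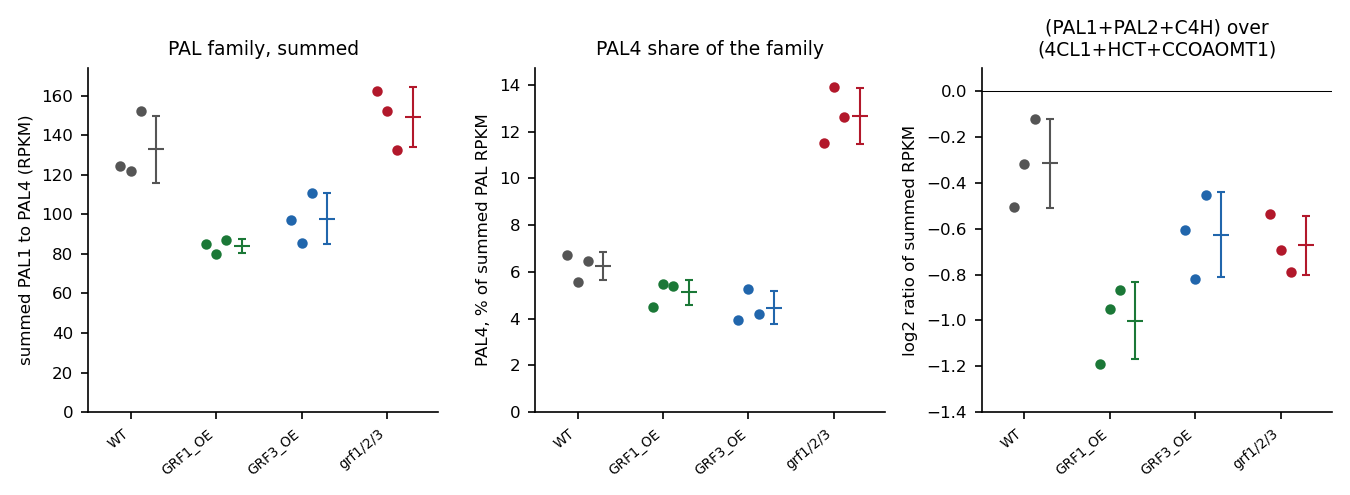
Summed PAL RPKM, the share of PAL4 in that sum (%), and the log2 ratio of summed PAL1, PAL2 and C4H to summed 4CL1, HCT and CCOAOMT1, each by genotype with 1 point for each library and bars for the mean ± SD. PAL4 took 11.5 to 13.9% of PAL transcript in the libraries labelled grf1/grf2/grf3 and 3.93 to 6.72% in the other libraries, and the log2 ratio was lowest in GRF1_OE (−1.19 to −0.87).

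Across the 12 libraries, log2 levels of PAL1 followed those of C4H (Pearson's r 0.953) and of PAL2 (0.910), and PAL4 followed HCT (0.952). PAL3 ran the other way from CCOAOMT1 (−0.638). These are descriptions over libraries that share genotype and depth. Among 6804 genes with a mean of at least 5 CPM and a symbol, the 8 whose log2 level was most like the summed PAL level over the 12 libraries were PEL3 (0.967), DAYSLEEPER (0.957), LUG (0.955), QKY (0.952), WRI1 (0.947), ABCF2 (0.945), AMT1;2 (0.944) and MIPS2 (0.941). PEL3, an acyltransferase gene of the cuticle, averaged 19.8 CPM in GRF1_OE, 24.3 in GRF3_OE, 37.4 in WT and 50.4 in the libraries labelled grf1/grf2/grf3. AMT1;2, an ammonium transporter gene, averaged 27.1, 46.4, 71.1 and 91.3 CPM in that order.

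The rest of the pathway was read from 6 lists of 81 genes, of which 68 passed the filter. Over the lists, edgeR called 5 genes higher and 13 lower in GRF1_OE, 1 higher and 8 lower in GRF3_OE, and 4 higher and 2 lower in the libraries labelled grf1/grf2/grf3. Among all genes tested, 21.8, 12.4 and 4.88% were called in these comparisons. The median log2 difference was −0.17, −0.15 and −0.03. Leaving out GRF3_OE replicate 3 gave 5 calls in GRF3_OE. In the libraries labelled grf1/grf2/grf3, leaving out their replicate 1, 2 or 3 gave 11, 2 and 2 calls, and leaving out WT replicate 2 gave 3. The lists were drawn up with earlier results of these data known.

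Of 13 other monolignol enzymes tested, 5 fell and 1 rose in GRF1_OE (median log2 difference −0.28), and 1 fell in GRF3_OE (−0.16). Called genes made up 21.8 and 12.4% of all genes in these comparisons. CAD4, a cinnamyl alcohol dehydrogenase of the last step, was at 92.7, 79.4 and 81.6 CPM in GRF1_OE, at 99.2, 83.4 and 89.8 in GRF3_OE, and at 138.4, 118.6 and 133.1 in WT. Neither overexpressor overlapped WT, and CAD4 fell in both, by 0.62 (SE 0.10) on the log2 scale in GRF1_OE (adjusted p = 0.000101) and by 0.52 (SE 0.10) in GRF3_OE (adjusted p = 0.00158). In GRF1_OE the methyltransferase gene OMT1 fell by 0.46 (adjusted p = 0.00188), the hydroxylase gene C3H1 by 0.45 (adjusted p = 0.00381) and the ligase gene 4CL3 by 0.81 (adjusted p = 0.00952). These calls held with any single library left out. ATR2, a reductase that supplies electrons to the P450 enzymes, also fell there, and CB5-D, a cytochrome b5, rose. These calls were less firm. With single libraries left out, 4 to 6 of the 13 enzymes were called in GRF1_OE, and at 4 both ATR2 and CB5-D had lost their calls. In the libraries labelled grf1/grf2/grf3, edgeR called 0 of 13 and DESeq2 1, and 6 had an unadjusted p under 0.05. Leaving out their replicate 1 or WT replicate 3 gave 3 and 1 higher.

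Peroxidases that couple monolignols moved in both directions. Of 8 polymerization and transport genes tested, 1 rose and 3 fell in each overexpressor (median log2 difference −0.29 in GRF1_OE and −0.28 in GRF3_OE). The share of all genes called was 21.8 and 12.4% there. PRX52 had counts of 5, 3 and 0 in WT, of 19, 20 and 26 in GRF1_OE and of 22, 27 and 27 in GRF3_OE. It rose by 2.65 (SE 0.56, adjusted p = 0.00176) and 2.83 (SE 0.55, adjusted p = 0.00219) on the log2 scale. Its counts in the libraries labelled grf1/grf2/grf3 were 4, 3 and 36, the last in the deepest library. PRX64, a peroxidase of the Casparian strip, fell by 1.22 (SE 0.25, adjusted p = 0.0012) in GRF1_OE and by 1.23 (SE 0.25, adjusted p = 0.0028) in GRF3_OE. PRX71, a cell wall peroxidase, was at 33.8, 34.5 and 24.0 CPM in the libraries labelled grf1/grf2/grf3 and at 87.7, 70.4 and 117.7 in WT, and fell by 1.59 (SE 0.17, adjusted p = 2.36e-05). PRX25 was at 7.15, 8.23 and 12.1 CPM there and at 3.43, 3.35 and 1.32 in WT, and rose by 1.65 (SE 0.28, adjusted p = 0.000667). Without GRF3_OE replicate 2, 1 gene rose and 1 fell in GRF3_OE.

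Of all genes tested, 21.8, 12.4 and 4.88% were called in GRF1_OE, GRF3_OE and the libraries labelled grf1/grf2/grf3. Of 13 regulators tested, 2 fell in each overexpressor and 2 rose in the libraries labelled grf1/grf2/grf3, where DESeq2 called 0. MED5a and MED5b, Mediator subunits known to hold phenylpropanoid synthesis down, were those that fell. MED5a was at 41.4, 39.0 and 38.1 CPM in GRF1_OE, 36.1, 31.9 and 47.1 in GRF3_OE, 69.8, 78.4 and 68.2 in the libraries labelled grf1/grf2/grf3 and 51.9, 55.3 and 54.0 in WT, with no overlap between WT and any group. The log2 difference was −0.44 (SE 0.12, adjusted p = 0.0103), −0.48 (SE 0.12, adjusted p = 0.0119) and 0.42 (SE 0.12, adjusted p = 0.0397). These calls were not firm. With the trend over transcript length removed, MED5a stood at −0.17 (adjusted p = 0.392) in GRF1_OE and −0.21 (adjusted p = 0.327) in GRF3_OE. In GRF3_OE, leaving out replicate 1 (−0.43), replicate 2 (−0.36) or WT replicate 2 (−0.45) ended the call, as did, in the libraries labelled grf1/grf2/grf3, leaving out any 1 of the 6 libraries compared (0.37 to 0.47). MED5b stood at −0.33 in GRF1_OE and −0.36 in GRF3_OE, and at −0.07 and −0.11 with the length trend removed. Replicates 1 and 3 of either overexpressor and WT replicate 2 each decided its call in that comparison (−0.34 to −0.30 without 1 of them). MYB43 stood at 0.85 in the libraries labelled grf1/grf2/grf3 and was not called when their replicate 2 or 3 or WT replicate 2 or 3 was left out (0.75 to 0.79).

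Upstream, 3 of 18 genes of shikimate and phenylalanine synthesis rose in GRF1_OE and 0 fell. Of all genes, 21.8% were called there, 10% higher and 11.8% lower. DHS1 and DHS2, which open the shikimate pathway, stood at 0.39 (SE 0.10, adjusted p = 0.00542) and 0.32 (SE 0.09, adjusted p = 0.0188), and ADT2, an arogenate dehydratase of the last step to phenylalanine, at 0.45 (SE 0.14, adjusted p = 0.0202). The median log2 difference of the list was −0.00 in GRF1_OE, 0.04 in GRF3_OE and 0.01 in the libraries labelled grf1/grf2/grf3. Leaving out replicate 2 of GRF1_OE or of WT gave a count of 1 in GRF1_OE. In GRF3_OE and in the libraries labelled grf1/grf2/grf3, edgeR and DESeq2 called 0 of 18, and 4 and 1 had an unadjusted p under 0.05. DHS1 was lost without WT replicate 2 (0.31), DHS2 without GRF1_OE replicate 2 (0.30) or WT replicate 1 (0.27), and ADT2 without GRF1_OE replicate 2 (0.45) or 3 (0.40) or WT replicate 2 (0.46).

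The branches that share coumaroyl-CoA with lignin were also read. CHS, the first enzyme of flavonoid synthesis, was at 29.1, 24.1 and 23.6 CPM in GRF1_OE, at 47.4, 41.3 and 46.2 in GRF3_OE, at 60.6, 32.6 and 45.1 in the libraries labelled grf1/grf2/grf3 and at 77.5, 57.1 and 72.4 in WT. GRF1_OE was the lowest group and did not overlap the others. CHS fell by 1.43 (SE 0.18, adjusted p = 6.38e-05) in GRF1_OE, and that call held with any single library left out. It fell by 0.61 (SE 0.17, adjusted p = 0.0288) in GRF3_OE, a call lost without any GRF3_OE library or without WT replicate 1 or 3 (−0.65 to −0.50). Between the overexpressors the log2 difference was −0.82 (SE 0.18, adjusted p = 0.0315), and it lost its call when any of the 6 libraries was left out (−0.92 to −0.77). Of 8 flavonoid genes tested, 2 fell in GRF1_OE (CHS and FLS1) and CHS alone in GRF3_OE, against 21.8 and 12.4% of all genes called. For those labelled grf1/grf2/grf3 edgeR called 0 of 8 and DESeq2 1, and 2 had an unadjusted p under 0.05. FLS1, a flavonol synthase gene, stood at −0.72 and lost its call without any GRF1_OE library or without WT replicate 1 or 3 (−0.74 to −0.55). Of 8 genes of sinapate esters and phenylpropanoid glucosides, 1 fell in each comparison with WT, against 21.8, 12.4 and 4.88% of all genes called. The counts were 0 to 2 when single libraries were left out and 0, 0 and 1 by DESeq2.

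Markers of lignifying and root cells were read beside the 10 genes. In bulk tissue, fewer cells of a type and less RNA per cell cannot be told apart. Summed over 11 xylem markers, GRF1_OE stood at 47.0 to 74.4 CPM, GRF3_OE at 67.6 to 82.7, those labelled grf1/grf2/grf3 at 90.9 to 109 and WT at 84.9 to 110, so both overexpressors lay below WT. Of all genes tested, 21.8% were called in GRF1_OE and 12.4% in GRF3_OE. Of 8 xylem markers tested, 4 fell in GRF1_OE, CESA7 among them (−0.77, adjusted p = 0.00501), and 1 in GRF3_OE. Leaving out GRF1_OE replicate 1, GRF1_OE replicate 3 or WT replicate 1 gave 1, 2 and 2 in GRF1_OE, and leaving out any GRF3_OE library or WT replicate 1 gave 0 in GRF3_OE. Both edgeR and DESeq2 called 0 of 8 in the libraries labelled grf1/grf2/grf3, and 1 had an unadjusted p under 0.05. NST1 and SND1, regulators of fibre walls, had 1, 0 and 0 counts each in WT and at most 2 in any library, too few to compare groups. The part of xylem in the levels of the 10 genes was not tested.

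Endodermis and Casparian strip markers summed to 29.7 to 51.6 CPM in WT. GRF1_OE stood at 20.4 to 26.0 CPM, GRF3_OE at 20.5 to 35.8 and those labelled grf1/grf2/grf3 at 25.3 to 44.2. The marker counts of these cell types and responses stand against 21.8% of all genes called in GRF1_OE and 12.4% in GRF3_OE. In the libraries labelled grf1/grf2/grf3 the share was 4.88%. Of 7 endodermis and Casparian strip markers tested, 3 fell in GRF1_OE and 2 in GRF3_OE. These counts were 1 without GRF1_OE replicate 1, 1 without GRF3_OE replicate 2 or 3, and 0 in both without WT replicate 1. Root hair markers were lower than in WT in GRF1_OE (7.82 to 11.2 against 25.9 to 32.8 CPM) and in the libraries labelled grf1/grf2/grf3 (2.44 to 5.70), where 3 of 3 tested fell in each. GRF3_OE stood at 11.2 to 27.6 CPM and overlapped WT, and 1 of 3 fell, PRP3, a call lost without GRF3_OE replicate 2 or 3 or with replicate 1 or 2 of WT left out (−0.89 to −0.63). RHS13, a root hair gene, stood at −1.18 in GRF1_OE and was not called by DESeq2, nor with GRF1_OE replicate 2 or WT replicate 1 or 2 left out (−1.16 to −0.91). In GRF1_OE and in the libraries labelled grf1/grf2/grf3, PRP3, a root hair wall protein gene, fell by 2.08 (adjusted p = 0.000123) and by 2.55 (adjusted p = 6.98e-05). PAL4 was low in GRF1_OE and high in the libraries labelled grf1/grf2/grf3, while root hair markers were low in both. Leaf mesophyll markers overlapped in all groups, and 1 of 8 fell in GRF1_OE, the chlorophyll-binding protein gene CAB2 (−0.59, adjusted p = 0.000859). Pathogen response markers, a response in which PAL genes are known to rise, summed to 58.9 to 79.7 CPM in WT. GRF1_OE stood at 73.1 to 112 CPM, GRF3_OE at 91.0 to 157 and those labelled grf1/grf2/grf3 at 73.6 to 172. Of 8 tested, PR1 stood at 3.50 in GRF3_OE and PAD4 at −0.62, and both passed the test there. PR1 averaged 73.5 ± 34.5 CPM in GRF3_OE and 7.58 ± 3.75 in WT, so it weighs heavily in the GRF3_OE sum. The median log2 difference of the 8 markers in GRF3_OE was 0.02, with 4 positive and 4 negative. Leaving out replicate 2 or 3 of GRF3_OE or any WT library ended the PR1 call, at 3.20 to 3.75, and leaving out any GRF3_OE library or WT replicate 1 ended the PAD4 call (−0.67 to −0.34). Seed markers summed to 6.10 to 49.1 CPM in WT, 0.812 to 38.8 in the libraries labelled grf1/grf2/grf3, and at most 0.72 in the overexpressors, and 1 of 2 tested was called in GRF1_OE, the storage protein gene CRU1, with counts of 0, 2 and 0 there and 7, 95 and 17 in WT. Its log2 difference was −6.09, and −8.65 to −4.77 in fits without any GRF1_OE library or WT replicate 2 or 3, where the call was lost (adjusted p from 0.0859 to 0.185). The part of these cell types and responses in the levels of the 10 genes was not tested.

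**Figure D4:**
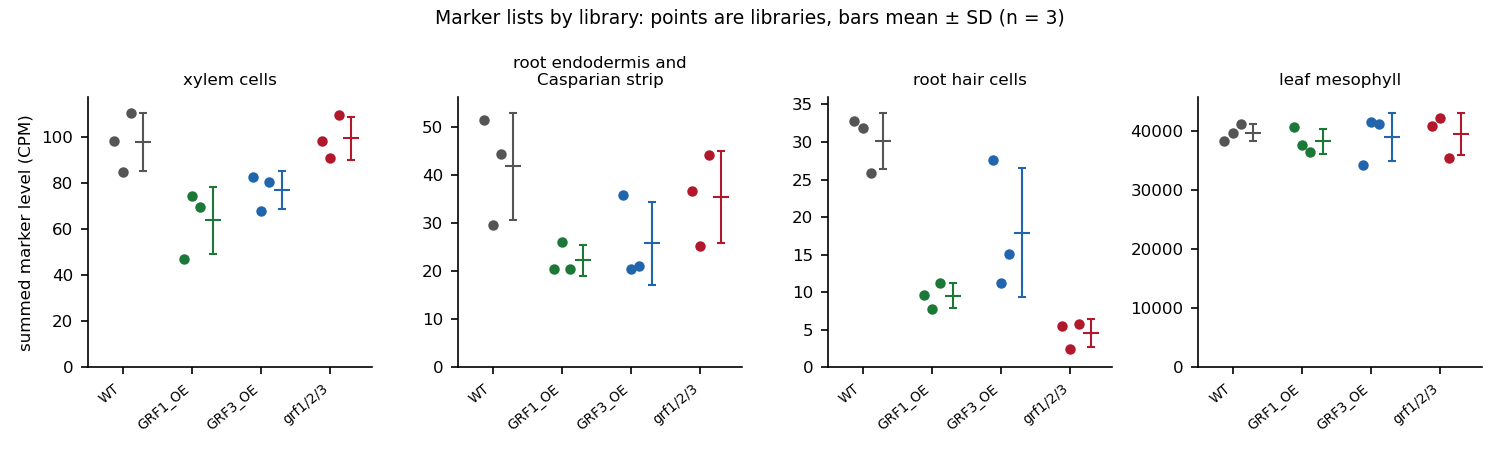
Summed CPM of markers of xylem, endodermis and Casparian strip, root hair and leaf mesophyll cells in each library by genotype, with bars for the mean ± SD of 3 libraries. Xylem sums were 47.0 to 82.7 CPM in the overexpressors and 84.9 to 110 in the other libraries, and root hair sums were lowest in the libraries labelled grf1/grf2/grf3.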

How the data were processed

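Messenger RNA of whole plants was measured in 12 libraries, 4 genotypes with 3 libraries each, grouped by the sample titles. The deposited files hold raw counts per locus, with no normalization. Trimmomatic, TopHat2 2.0.14, HTSeq, DESeq2 and the genome build TAIR10 are listed in the submitters' processing notes, with no further settings. How strand was handled is not given in the sources used here. Alignments that were not unique were counted in a row of their own, which held 54.4 to 73.4% of all counts. Rows that name no gene took 57.6 to 76.9% of all counts and entered neither library sizes nor tests. Their share was 62.7 to 65.8% in GRF1_OE and 57.6 to 65.2% in GRF3_OE, below every WT library (67.8 to 76.9%). The libraries labelled grf1/grf2/grf3 stood at 67.8 to 71.6%. The part of this share in the differences from WT was not tested. Loci matched the TAIR10.1 annotation in 97.3% of cases, which gave coordinates, lengths and sequences from RefSeq.

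The test was edgeR 4.0.16 in R 4.3.3 (TMM factors, filterByExpr with minimum count 10 and minimum total 15, robust quasi-likelihood F test) in 1 fit of all 12 libraries with genotype as the only term and 8 residual degrees of freedom. Genes with an adjusted p under 0.05 were called, over 17938 genes. CPM are scaled by TMM factors, RPKM are CPM per kilobase of exon, and the standard error is the log2 difference over the square root of F. The fit was tested on simulated data. All replicate pairs differed by more than sampling noise. Counts have no molecular identifiers, so reads are not independent molecules.

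The 10 genes and the 12 lists of other genes (133 genes) were chosen with earlier results of these data known. Named list genes are the up to 4 called genes of a list and comparison with the largest log2 difference, and the 8 genes most like the summed PAL level by Pearson's r of log2(CPM + 0.5). ATR2 and CB5-D were named after their values were seen. The alternatives tried were RLE factors, upper-quartile factors, a fit of all genes unfiltered, at least 1 CPM in 3 or more libraries, a replicate block, DESeq2 1.42.0, the 6 compared libraries alone and each library left out. A fit with each library's trend over transcript length removed was added after seeing the data.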

Additional observations from a re-analysis of the deposited data

Results flagged for a closer look

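PAL4 differed from WT in opposite directions. Its log2 difference was −0.91 in GRF1_OE, where 3 of 3 libraries lay below WT, and −0.89 in GRF3_OE, where 3 of 3 lay below, and 1.20 in the libraries labelled grf1/grf2/grf3, where 3 of 3 lay above. The difference between the overexpressors and the libraries labelled grf1/grf2/grf3 was not tested, and the WT libraries are shared by these comparisons. Each of these calls held in all 14 alternatives.

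MED5a showed the same arrangement, at −0.44 in GRF1_OE, −0.48 in GRF3_OE and 0.42 in the libraries labelled grf1/grf2/grf3, with 3 of 3 libraries of each group on that side of WT. The difference between these groups was not tested. The last call was lost in 8 of 14 alternatives, the GRF3_OE call in 4 and the GRF1_OE call in 1.

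CHS differed between the overexpressors in the test of that difference, with a log2 difference of −0.82 for GRF1_OE minus GRF3_OE, and 3 of 3 GRF1_OE libraries lay below all GRF3_OE libraries. Its adjusted p from edgeR ran from 0.000117 to 0.165 over its alternatives.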

How the results depend on the processing

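Over all genes, edgeR called 3911 in GRF1_OE, 2226 in GRF3_OE, 875 in the libraries labelled grf1/grf2/grf3 and 204 between the overexpressors. Leaving out single libraries gave 2494 to 3359, 1200 to 1788, 377 to 1026 and 106 to 181. With the length trend removed, an alternative chosen after seeing the data, the counts in GRF1_OE and GRF3_OE were 2540 and 888, and with the 6 compared libraries alone the last 2 were 535 and 408. Of the 10 genes, 5, 3, 5 and 0 were called. Single libraries left out gave 4 to 5, 1 to 3, 3 to 6 and 0 to 1. The count in GRF3_OE was 1 with the length trend removed, that in the libraries labelled grf1/grf2/grf3 was 3 with the 6 compared libraries alone, and that between the overexpressors was 1 (C4H) with no filter and with the 6 compared libraries alone. Of the other pathway genes, 18, 9, 6 and 1 were called, with 13 to 17, 5 to 9, 2 to 11 and 0 to 1 when single libraries were left out. Between the overexpressors the count was 0 with upper-quartile factors and 2 with the 6 compared libraries alone. The cause was not tested. No called result reversed its direction. Calls of PAL1, PAL2, PAL4 and C4H in GRF1_OE, and of PAL4, 4CL1 and CCOAOMT1 in the libraries labelled grf1/grf2/grf3, held in 14 of 14 alternatives. With the length trend removed PAL1 and PAL2 stood at −0.45 and −0.49 in GRF1_OE. PAL1 in GRF3_OE lost its call in 7 of 14, PAL2 there in 4, PAL3 in GRF1_OE in 6 and in the libraries labelled grf1/grf2/grf3 in 4, and HCT there in 3. With the replicate number as a block, which the labels do not say pairs libraries, edgeR called 3710, 2017, 771 and 228 genes. Deviations of each library's log2 levels from its group mean were correlated between the groups compared. For same-numbered libraries these correlations ran from −0.14 to 0.14. Each GRF3_OE library correlated best with the WT library of its own number. Upper-quartile factors moved the share of higher calls in GRF1_OE from 45.9 to 54.9%. Depth limits 4CL2 and PAL3, with 30 and 42 counts in WT replicate 3.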
